A study of Mus musculus with 78 samples.

Results

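Mpi, Pomgnt2 and 7 further genes of mannose supply and protein O-mannosylation were followed in mouse embryonic stem cells (mESCs) from which the transcription factor ZFP143 was removed. The 9 genes, out of 55401 in each count table, were Mpi, Pmm1, Pmm2, Gmppa, Gmppb, Pomt1, Pomt2, Pomgnt1 and Pomgnt2. Mpi and Pomgnt2 were singled out because their RNA fell steeply after ZFP143 depletion, so their values with dTAG-V1 in all 3 count tables are given as a description. The other 7 genes were taken for their place in the pathway, but with earlier results of these data known. Their p-values are therefore not free of that knowledge. All 9 were present in the tables, and 8 of 9 passed the filter on low counts in the nascent RNA, where Pomgnt2 did not.

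All libraries came from E14TG2a mESCs with the genotype ZFP143-FKBP, in which both copies of Zfp143 carry a degron domain, an HA tag and GFP. The small molecule dTAG-V1, at 500 nM, sends the fusion protein to degradation, and DMSO was the control, so control and depleted cells share the tagged allele. TT-seq, which labels RNA with 4-thiouridine for minutes before harvest and so reads newly made RNA, had 2 libraries each for DMSO and for 2, 6 and 24 h of dTAG-V1. RNA-seq of messenger RNA had 2 libraries each for DMSO and for 24, 48 and 72 h. In the retinoic acid (RA) experiment, cells had 24 h of DMSO or dTAG-V1 and were collected, or were moved for a further 24 h to a differentiation medium with RA while the treatment went on (2 libraries in each of the 4 groups). That medium was not used without RA in these libraries, and an effect of RA therefore includes the change of medium and the longer culture. The cells were homozygous clones, and which clone gave which library was not given in the sources used here. ZFP143 binding was read from 1 list of 3189 peaks of a ChIP-seq with an antibody to the HA tag, which has no replicates.

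The library totals ran from 9721568 to 16532077 counts in TT-seq, from 10261851 to 15316700 in the RNA-seq time course and from 13890761 to 27089033 in the RA experiment. Levels are in CPM, counts scaled to the library total after edgeR's TMM adjustment, which multiplied the totals by 0.972 to 1.04 in TT-seq, 0.899 to 1.06 in the RNA-seq time course and 0.837 to 1.23 in the RA experiment, and the 2 values of a group are always given in the order of replicates 1 and 2. In bulk libraries a change in the mix of cells and a change in RNA per cell cannot be told apart. The Zfp143 transcript itself rose, from 71.3 and 74.4 CPM with DMSO to 162 and 165 after 2 h in TT-seq (adjusted p = 1.0e-03, edgeR). dTAG-V1 removes the protein, so this transcript is no check of the depletion.

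The 9 enzymes form 1 route. MPI turns fructose 6-phosphate into mannose 6-phosphate, the phosphomannomutases PMM1 and PMM2 move the phosphate to the first carbon, and GMPPB makes GDP-mannose with GMPPA as its regulatory partner. Mannose from GDP-mannose goes into N-glycans, glycolipid anchors and O-mannosyl glycans. In the endoplasmic reticulum the POMT1-POMT2 complex puts the first O-linked mannose on proteins such as dystroglycan. POMGNT2 then adds N-acetylglucosamine on the branch that ends in the laminin-binding glycan, and POMGNT1 does so on the others. ZFP143 is a zinc finger protein that binds a long sequence at promoters, and ACTACA is part of its known site.

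A ZFP143 peak lay at a transcript start of 5 of the 9 genes, namely Mpi, Pmm2, Gmppa, Pomgnt2 and Pomt2. Of the protein-coding genes tested in TT-seq, 15.6% had such a peak. Mpi and Pomgnt2, chosen for a steep fall of their RNA, are among the 5, so this count is a description. In each of the 4 pairs of related genes, Pmm1 and Pmm2, Gmppa and Gmppb, Pomt1 and Pomt2, and Pomgnt1 and Pomgnt2, exactly 1 of the 2 was bound. The promoters of Mpi and Pomgnt2, whose RNA fell most, are shown first, each as 100 bases that end 21 bases before the RefSeq start (genome build mm10, minus strand, 5′ to 3′). The capitals mark ACTACA and TCC with any 2 bases between them.

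Mpi, chr9:57552773-57552872: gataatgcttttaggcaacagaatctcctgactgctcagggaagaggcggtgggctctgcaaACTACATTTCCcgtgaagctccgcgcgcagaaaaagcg

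Pomgnt2, chr9:121996047-121996146: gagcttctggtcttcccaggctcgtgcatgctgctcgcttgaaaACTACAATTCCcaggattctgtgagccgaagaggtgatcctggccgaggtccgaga

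The same letters lay within 100 bases of the peak summit of all 5 bound genes, and the 30 bases around them are printed to let the sites be compared. Each is written in the direction of the letters, which is that of the gene at Mpi, Gmppa and Pomgnt2 and against it at Pmm2 and Pomt2.
Mpi, chr9:57552789-57552818, minus strand: ctctgcaaACTACATTTCCcgtgaagctcc
Pmm2, chr16:8637603-8637632, minus strand: aaatttgaACTACAGTTCCcaagccatagt
Gmppa, chr1:75435892-75435921, plus strand: ttttcaaaACTACAATTCCcagcagccccc
Pomgnt2, chr9:121996081-121996110, minus strand: gcttgaaaACTACAATTCCcaggattctgt
Pomt2, chr12:87147672-87147701, plus strand: gctcatgaACTACAACTCCcagcagctcag

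Gmppa and Pomgnt2 held the same 11 letters, ACTACAATTCC. This pattern of ACTACA, any 2 bases and TCC was written down after these windows had been read, and it occurs on either strand in 30.2% of the 201-base windows at ZFP143 summits and in 1.98% of 32851 RefSeq promoters of 300 bases. The shorter string ACTACAA, which overlaps them, was found at 3 of the 5 (Gmppa, Pomgnt2 and Pomt2), against 18.4% of summit windows and 3.24% of promoters. A second pattern from the known site, CCCA and ATGC with any 2 bases between them, was found at none of the 5, against 22.7% of summit windows and 1.88% of promoters. RefSeq promoters were matched for 8 of the 9 genes, all but Gmppb, and none of the 3 patterns lay in those of Pmm1, Pomt1 or Pomgnt1. None lay in the RefSeq promoter of the bound Pomt2 either, whose letters were found in the summit window alone. A match is a description of the letters and not a measured site.

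The peak at Pomt2 had the highest enrichment over input of the 5, 89.0-fold, and stood at the 94.6th percentile of all 3189 peaks. The peak at Mpi reached 49.6-fold, at Gmppa 49.3-fold, at Pomgnt2 30.1-fold and at Pmm2 18.2-fold, where Pmm2 was at the 46.3rd percentile. Enrichment at these genes therefore ran from about the middle of the list to near its top. The summits lay 11 bp upstream of the nearest transcript start at Mpi, 15 bp at Pmm2, 14 bp at Gmppa and 63 bp at Pomgnt2, and 168 bp downstream of it at Pomt2. The middle of the printed letters was 9 to 49 bp from the summit. A CTCF peak, from a list made of DMSO and dTAG-V1 samples together, also lay at the start of Pmm2 and of the unbound Pomt1.

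**Figure D1:**
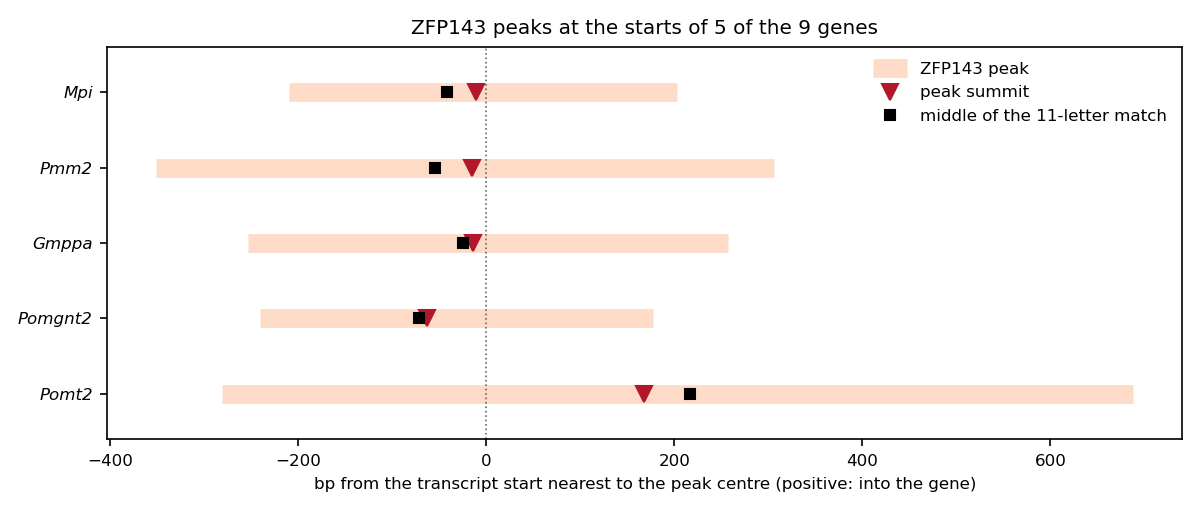
ZFP143 peaks at the 5 bound genes, drawn to scale as distance in bp from the transcript start nearest to the peak centre, with positive values inside the gene. Bars are the peaks, triangles the summits and squares the middle of the capital letters printed above. Summits lie 11 to 63 bp upstream at Mpi, Pmm2, Gmppa and Pomgnt2 and 168 bp downstream at Pomt2.

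The genes lie apart in the genome. Mpi (ENSMUSG00000032306.14) spans chr9:57544256-57552763 on the minus strand, and Pomgnt2 (ENSMUSG00000066235.7) spans chr9:121981606-121997110 on the minus strand. Pmm1 spans chr15:81951108-81960930, Pmm2 chr16:8637674-8662467, Gmppa chr1:75435930-75443179 and Gmppb chr9:108049242-108052801. Pomt1 spans chr2:32236590-32255005, Pomt2 chr12:87106861-87147968 and Pomgnt1 chr4:116123840-116159849. Gmppb overlaps Gm20529 on the same strand, so reads of these 2 genes may be shared. Pmm2, Gmppb, Pomt1, Pomt2, Pomgnt1 and Pomgnt2 overlap a gene on the opposite strand, which for Gmppb is Rnf123. The TT-seq reads were split by strand before counting. For RNA-seq a stranded kit was used, but the strand that was counted was not given in the sources used here.

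In DMSO, Pmm1 had the highest RNA-seq level per kilobase of exon of the 9, 78.2 ± 1.2 CPM per kb (SD, n = 2). Mpi followed with 21.7 ± 0.65, Gmppa with 17.0 ± 0.47 and Pomgnt1 with 12.8 ± 0.50 CPM per kb. Gmppb (6.98 ± 0.73) and Pmm2 (6.59 ± 0.33) overlapped between libraries, and all other neighbours in this order did not. Below them came Pomt1 with 4.98 ± 0.15, Pomt2 with 3.25 ± 0.13 and Pomgnt2 with 1.08 ± 0.14 CPM per kb. Pomgnt2 was thus the lowest of the 9, with 31 and 48 counts in the DMSO libraries. In TT-seq, per kilobase of the gene's whole span, Pmm1 was again highest at 7.81 CPM per kb and Pomgnt2 again lowest at 0.610, with overlap between Pomgnt2 and Pomt2.

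In the nascent RNA the 5 bound genes were below DMSO after 2 h of depletion, and the 4 unbound relatives overlapped with DMSO at every time. Mpi and Pomgnt2, among the 5, were chosen for their fall. How many of all tested genes separate from DMSO in this way, with 2 libraries per group, was not counted. Mpi had 27.3 and 20.6 CPM in DMSO, 2.31 and 1.93 after 2 h, then 2.34 and 1.40 after 6 h and finally 0.394 and 0.228 after 24 h. Pomgnt2 had 7.34 and 11.6 CPM in DMSO, 0.0797 and 0.482 after 2 h, then 0.0779 and 0.331 after 6 h and finally 0.0984 and 0.836 after 24 h. All depleted libraries of both genes were below both DMSO libraries. Group means after 2 h were 8.9% of DMSO for Mpi and 3.0% for Pomgnt2. For Mpi the mean after 24 h was 1.3% of DMSO. Pomgnt2 rested on few molecules, 9 counts after 2 h against 223 in DMSO, a depth-scaled ratio of 3.16% (exact 95% interval 1.42 to 6.10, counting error only), and it failed the count filter, so no fitted change is given.

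The fitted log2 change of Mpi against DMSO was −3.50 ± 0.31 (SE) after 2 h, −3.66 ± 0.32 after 6 h and −6.26 ± 0.41 after 24 h. Between 2 h and 24 h the change of Mpi was −2.76 ± 0.46, given as a description. The change of Gmppa between those times was −1.89 ± 0.45, with an adjusted p of 0.12 that became 0.033 in the fit with the replicate number as a block (edgeR). Without the block 0 of 8 genes passed between these times, where 0.056% of all tested genes were called lower and 0.0336% higher. With the block 390 of 17870 genes were called lower (2.18%) and 572 higher.

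Pomt2, the partner of Pomt1 in the O-mannosyltransferase, had 30.4 and 34.4 CPM in DMSO and 5.10 and 4.82 after 2 h in TT-seq. It stayed low, with 3.20 and 3.97 CPM after 6 h and 4.13 and 4.71 after 24 h. The fall of Pomt2 after 2 h was −2.71 ± 0.21 on the log2 scale (adjusted p = 6.3e-04, edgeR's quasi-likelihood test with Benjamini-Hochberg adjustment over 17870 genes). Gmppa fell from 10.4 and 9.83 CPM to 3.19 and 2.11 after 2 h, then 1.64 and 1.74 after 6 h and finally 1.08 and 0.380 after 24 h. Its changes were −1.94 ± 0.36, −2.58 ± 0.38 and −3.84 ± 0.43 (adjusted p = 0.025, 0.0080 and 0.0020, edgeR). Pmm2 fell less than the other bound genes, from 62.7 and 70.8 CPM to 33.5 and 38.4 after 2 h, and was at 53.8%, 55.2% and 53.3% of its DMSO mean at the 3 times. The Pmm2 change after 2 h was −0.89 ± 0.16 (adjusted p = 0.022, edgeR), and the calls for Pmm2 and Gmppa after 2 h were lost when any 1 of the 4 libraries compared was left out (edgeR's adjusted p from 0.0504 to 0.236 for Pmm2 and from 0.0932 to 0.256 for Gmppa). Pmm2 was also lost without any 1 library after 6 h and in 3 of 4 such fits after 24 h, and Gmppa after 6 h without either 6 h library (highest adjusted p 0.229, 0.0765 and 0.117, edgeR).

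At each of the 3 times 4 of the 8 tested genes passed the test as lower and 0 as higher (edgeR), namely Mpi, Pmm2, Gmppa and Pomt2. Over all tested genes 2.43%, 2.83% and 4.09% were called lower and 0.168%, 0.397% and 2.02% higher after 2, 6 and 24 h. Since Mpi is among the 4, and was chosen on this contrast, the count is a description. The unbound genes Pmm1, Gmppb, Pomt1 and Pomgnt1 had group means between 77.0% and 111% of DMSO. Of tested protein-coding genes, 17.5% with a ZFP143 peak and 0.173% without one were called lower after 2 h, so a peak alone did not go with a call for most genes.

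**Figure D2:**
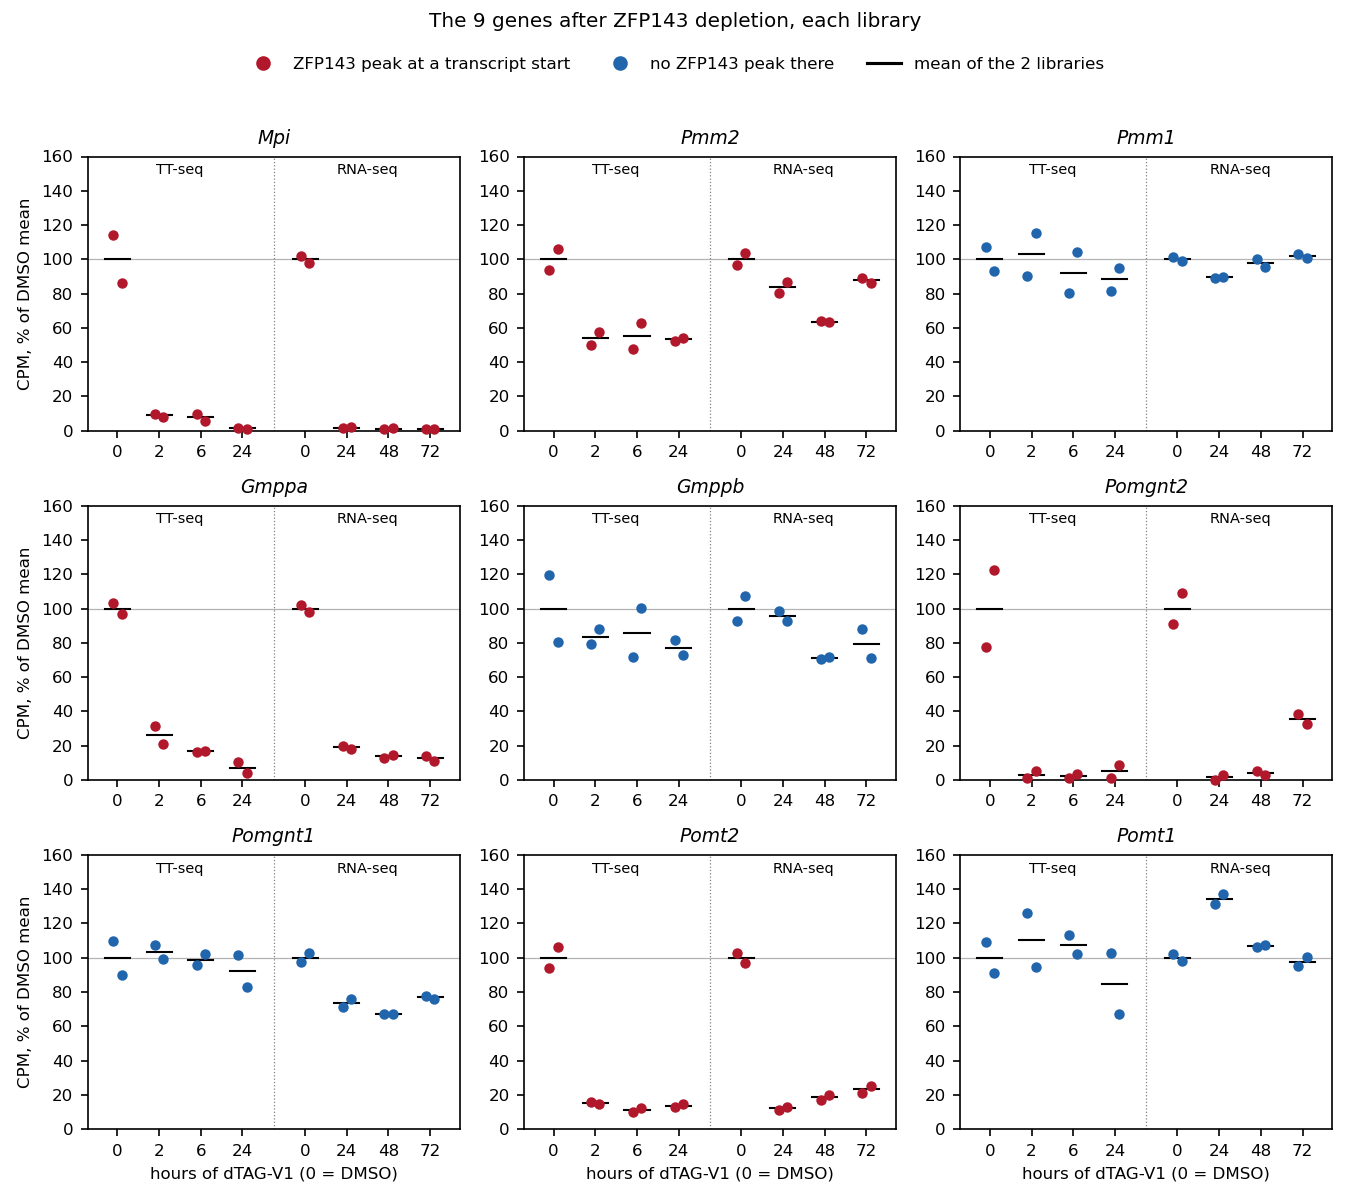
CPM of each of the 9 genes in every TT-seq and RNA-seq library by hours of dTAG-V1 (0 is DMSO), as a percent of the DMSO mean of the same assay. Points are single libraries, short lines are group means, and red marks genes with a ZFP143 peak at a start. Mpi, Gmppa, Pomt2 and Pomgnt2 drop below DMSO in both assays, while Pmm2 drops to 53.8% of DMSO after 2 h in TT-seq and to 83.5% after 24 h in RNA-seq.

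The steady-state RNA of the same line was then followed to 72 h. Mpi had 69.5 and 66.6 CPM in DMSO, 0.888 and 1.55 after 24 h, then 0.480 and 0.980 after 48 h and finally 0.740 and 0.682 after 72 h. Its depleted libraries did not come near the DMSO libraries at any time, and the group means were 1.8%, 1.1% and 1.0% of DMSO. The log2 changes of Mpi were −5.81 ± 0.16, −6.55 ± 0.17 and −6.57 ± 0.17. Pomgnt2 had 2.85 and 3.42 CPM in DMSO, 0 and 0.0912 after 24 h, then 0.160 and 0.0890 after 48 h and finally 1.20 and 1.02 after 72 h. Pomgnt2 was therefore higher after 72 h than after 24 h or 48 h in both libraries, and still below DMSO, and 7.53% of all tested genes were called higher between 24 h and 72 h. In counts, Pomgnt2 had 79 in DMSO and 1, 3 and 28 after 24, 48 and 72 h. The depth-scaled ratios to DMSO were 1.35% (exact 95% interval 0.03 to 7.75), 3.99% (0.81 to 12.1) and 34.7% (21.7 to 53.9), for counting error only.

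Pomt2 also went part of the way back. It had 26.5 and 25.1 CPM in DMSO, 2.91 and 3.38 after 24 h, then 4.40 and 5.16 after 48 h and finally 5.46 and 6.48 after 72 h, and the depleted groups of Pomt2 followed each other without overlap. The change of Pomt2 against DMSO was −3.04 ± 0.15 after 24 h (adjusted p = 6.6e-14, edgeR's glmTreat test against 1.5-fold over 13925 genes) and −2.09 ± 0.13 after 72 h. The difference of Pomt2 between 72 h and 24 h, 0.95 ± 0.20, had an adjusted p of 0.061 (edgeR) and did not pass. Gmppa did not return. It had 41.4 and 39.8 CPM in DMSO, 8.07 and 7.39 after 24 h, then 5.20 and 5.97 after 48 h and finally 5.64 and 4.50 after 72 h. The change of Gmppa was −2.39 ± 0.11 after 24 h and −3.02 ± 0.12 after 72 h (adjusted p = 6.7e-14 and 1.4e-16, edgeR).

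Pmm2 differed between the assays. In RNA-seq it had 35.2 and 37.8 CPM in DMSO, 29.3 and 31.7 after 24 h, then 23.4 and 23.1 after 48 h and finally 32.6 and 31.4 after 72 h. With TMM scaling all 6 depleted libraries of Pmm2 were below both DMSO libraries, but none of its 3 changes passed the test against 1.5-fold (adjusted p = 1.0, 0.27 and 1.0, edgeR). The change of Pmm2 after 72 h was −0.20 and turned to 0.023 with scaling by library size alone. Among the unbound genes, Pomgnt1 was lowest after 48 h with 47.3 and 47.0 CPM against 68.2 and 72.1 in DMSO, a change of −0.58 ± 0.07 that did not pass (adjusted p = 0.80, edgeR). Pomt1 had 42.2 and 44.1 CPM after 24 h against 32.8 and 31.4 in DMSO, a change of 0.43 ± 0.08. Group means of the 4 unbound genes ran from 67.2% to 134% of DMSO over the 3 times. Pomgnt1 lay below both DMSO libraries at all 3 times, Gmppb after 48 and 72 h and Pmm1 after 24 h. Pomt1 lay above both after 24 and 48 h. The genes called lower at each time were Mpi, Gmppa, Pomgnt2 and Pomt2, 4 of 9 with 0 called higher (edgeR), beside 3.41%, 7.71% and 12.0% of all tested genes called lower after 24, 48 and 72 h and 2.32%, 10.5% and 13.7% called higher. Mpi and Pomgnt2 were chosen on these contrasts, and this count supports nothing further. The Pomgnt2 call after 72 h was lost with DESeq2 and with scaling by library size alone. Without either DMSO library Pomgnt2 failed the count filter, which left 3 calls at each time, and without either 72 h library it failed after 72 h.

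**Figure D3:**
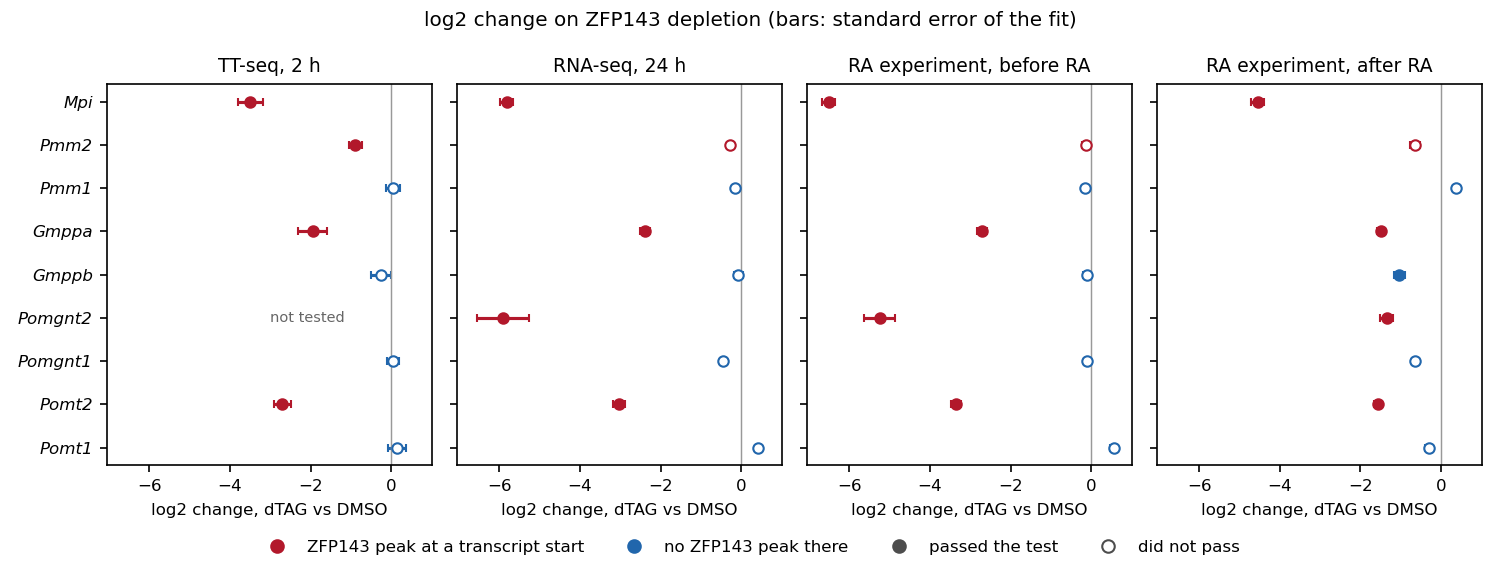
Log2 change of each gene with dTAG-V1 against DMSO, with its SE as a bar, in TT-seq after 2 h, in RNA-seq after 24 h and in the RA experiment before and after RA. Red marks genes with a ZFP143 peak at a start, filled points passed the test, and Pomgnt2 was not tested in TT-seq. Mpi lies between −6.51 and −3.50 in the 4 panels, and the unbound Gmppb passes only after RA, at −1.03.

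The RA experiment repeated the 24 h depletion in other libraries. Mpi had 67.8 and 72.8 CPM with DMSO and 0.623 and 0.877 with dTAG-V1, a difference of −6.51 ± 0.16 on the log2 scale. Pomgnt2 had 4.20 and 4.81 CPM with DMSO and 0.0519 and 0.159 with dTAG-V1, or 164 and 5 counts, a difference of −5.24 ± 0.39. Both genes were again low in every depleted library, and both were chosen with these libraries in view. Pomt2 went from 29.4 and 30.1 to 3.06 and 2.79 CPM (−3.35 ± 0.13, adjusted p = 1.2e-13, edgeR's glmTreat over 15915 genes). Gmppa went from 53.1 and 60.8 to 7.84 and 9.45 CPM (−2.71 ± 0.11, adjusted p = 6.7e-13, edgeR). The 4 genes called lower here were the same 4 as in the RNA-seq time course, against 3.66% of all tested genes called lower and 2.74% called higher, and the count is a description, since Mpi and Pomgnt2 are among the 4. Pmm2 overlapped between DMSO (40.5 and 49.5 CPM) and dTAG-V1 (43.0 and 39.0), and Pmm1, Gmppb, Pomt1 and Pomgnt1 did not pass either.

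RA treatment of control cells, with its change of medium, moved the genes of the route in different directions. Pmm2 fell to 14.8 and 14.9 CPM (−1.60 ± 0.11, adjusted p = 6.1e-09, edgeR) and Gmppb to 9.63 and 11.3 from 32.9 and 33.2 before RA (−1.67 ± 0.11, adjusted p = 3.1e-09, edgeR). Mpi, at 37.0 and 39.3 CPM, and Pmm1, at 125 and 108, also fell, by 0.88 ± 0.10 and 0.82 ± 0.09 (adjusted p = 1.6e-03 and 3.2e-03, edgeR). These calls for Mpi and Pmm1 were lost with DESeq2, with scaling by library size alone and in 2 of the 4 fits without 1 library (replicate 2 of DMSO before RA for both, then replicate 1 of DMSO after RA for Mpi and replicate 2 for Pmm1), where edgeR's adjusted p reached 0.0411 and 0.147. Pomgnt2, the dystroglycan glycan enzyme, rose from 4.20 and 4.81 to 14.0 and 17.5 CPM, a change of 1.79 ± 0.17 (adjusted p = 2.8e-07, edgeR). Gmppa (83.1 and 75.2 CPM) and Pomt2 (49.4 and 45.2) were above their levels before RA in both libraries, but at 0.48 ± 0.09 and 0.67 ± 0.09 they did not pass the test against 1.5-fold. In all, 4 of 9 were called lower and 1 higher, against 18.1% and 25.8% of all tested genes, so RA calls were common in these libraries. Scaling by library size alone turned these 2877 lower and 4113 higher genes into 1710 and 5164.

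In depleted cells Mpi stayed low after RA, Gmppa and Pomt2 rose, Pomgnt2 was higher than before RA, and Pmm2 fell. Mpi had 1.94 and 1.30 CPM after RA with dTAG-V1 against 37.0 and 39.3 after RA with DMSO, and the difference was −4.55 ± 0.15. Pomgnt2 went from 0.0519 and 0.159 to 5.93 and 6.29 CPM, which is above its level in control cells before RA but below the 14.0 and 17.5 CPM of control cells after RA. The difference of Pomgnt2 with RA in depleted cells was 5.68 ± 0.36, and its difference from DMSO after RA was −1.35 ± 0.16, a depth-scaled ratio of 39.7% (exact 95% interval 34.2 to 46.1). Gmppa rose to 29.9 and 26.7 CPM and Pomt2 to 16.2 and 15.9 CPM, by 1.70 ± 0.12 and 2.46 ± 0.14 (adjusted p = 2.9e-09 and 1.7e-11, edgeR). Both were still lower than with DMSO after RA, Gmppa by −1.49 ± 0.10 and Pomt2 by −1.56 ± 0.10 (adjusted p = 2.1e-08 and 7.4e-09, edgeR). The RA-treated depleted cells had 48 h of dTAG-V1 and the others 24 h, so the time of depletion and RA cannot be told apart here. In the time course without RA, Pomgnt2 was at 4.0% of DMSO after 48 h.

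Gmppb, which has no ZFP143 peak at its start, was the one gene called lower after RA that was not called before it. It had 5.10 and 5.03 CPM with dTAG-V1 and RA against 9.63 and 11.3 with DMSO and RA (−1.03 ± 0.14, adjusted p = 3.3e-03, edgeR), and the call was lost with DESeq2 (adjusted p = 0.10), with scaling by library size alone (edgeR, adjusted p = 0.064) and without either depleted RA library or replicate 2 of the control RA libraries (adjusted p up to 0.0395, edgeR). With it, 5 of 9 were called lower after RA, Mpi and Pomgnt2 among them, against 7.36% of all tested genes called lower and 9.1% called higher. RA in depleted cells lowered Pmm2 from 43.0 and 39.0 to 9.14 and 9.87 CPM (−2.11 ± 0.12) and Gmppb (−2.59 ± 0.12), with adjusted p values of 2.9e-11 and 1.3e-12 (edgeR). The count there was 2 lower and 3 higher, with Pomgnt2 among the 3, against 18.5% and 25.0% of all tested genes, or 2939 and 3980 genes that became 1518 and 5447 with scaling by library size alone.

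The test of the difference between these RA effects, depleted minus control cells, passed for the 7 genes other than Mpi and Pomgnt2 (edgeR's quasi-likelihood test), against 31.7% of all tested genes in either direction, 18.0% lower and 13.7% higher. The difference was above 0 for Pomgnt2 (3.89 ± 0.48), Mpi (1.96 ± 0.31), Pomt2 (1.79 ± 0.17), Gmppa (1.22 ± 0.15) and Pmm1 (0.52 ± 0.12). It was below 0 for Gmppb (−0.92 ± 0.17), Pomt1 (−0.86 ± 0.13), Pomgnt1 (−0.54 ± 0.12) and Pmm2 (−0.51 ± 0.16). The values of Mpi and Pomgnt2, which were chosen on the depletion that forms part of this difference, are a description and stand on 34 and 5 counts with dTAG-V1 before RA. Pomt2 and Gmppa were then at 9.8% and 15.2% of DMSO. For Pmm2, Gmppb, Pomt1 and Pomgnt1 the level with dTAG-V1 was lower relative to DMSO after RA than before it. Leaving out 1 of the 8 libraries ended the call in 5 fits for Pmm2 (adjusted p up to 0.103), in 5 for Pomgnt1 and in 4 for Pmm1, where the size of the difference dropped under 0.5 (edgeR). With a test against 1.5-fold, 4 of the 9 passed, all of them higher. Of 15915 tested genes 713 (4.48%) were then called higher and 700 lower. Mpi and Pomgnt2 are among the 4, and this count is a description too.

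**Figure D4:**
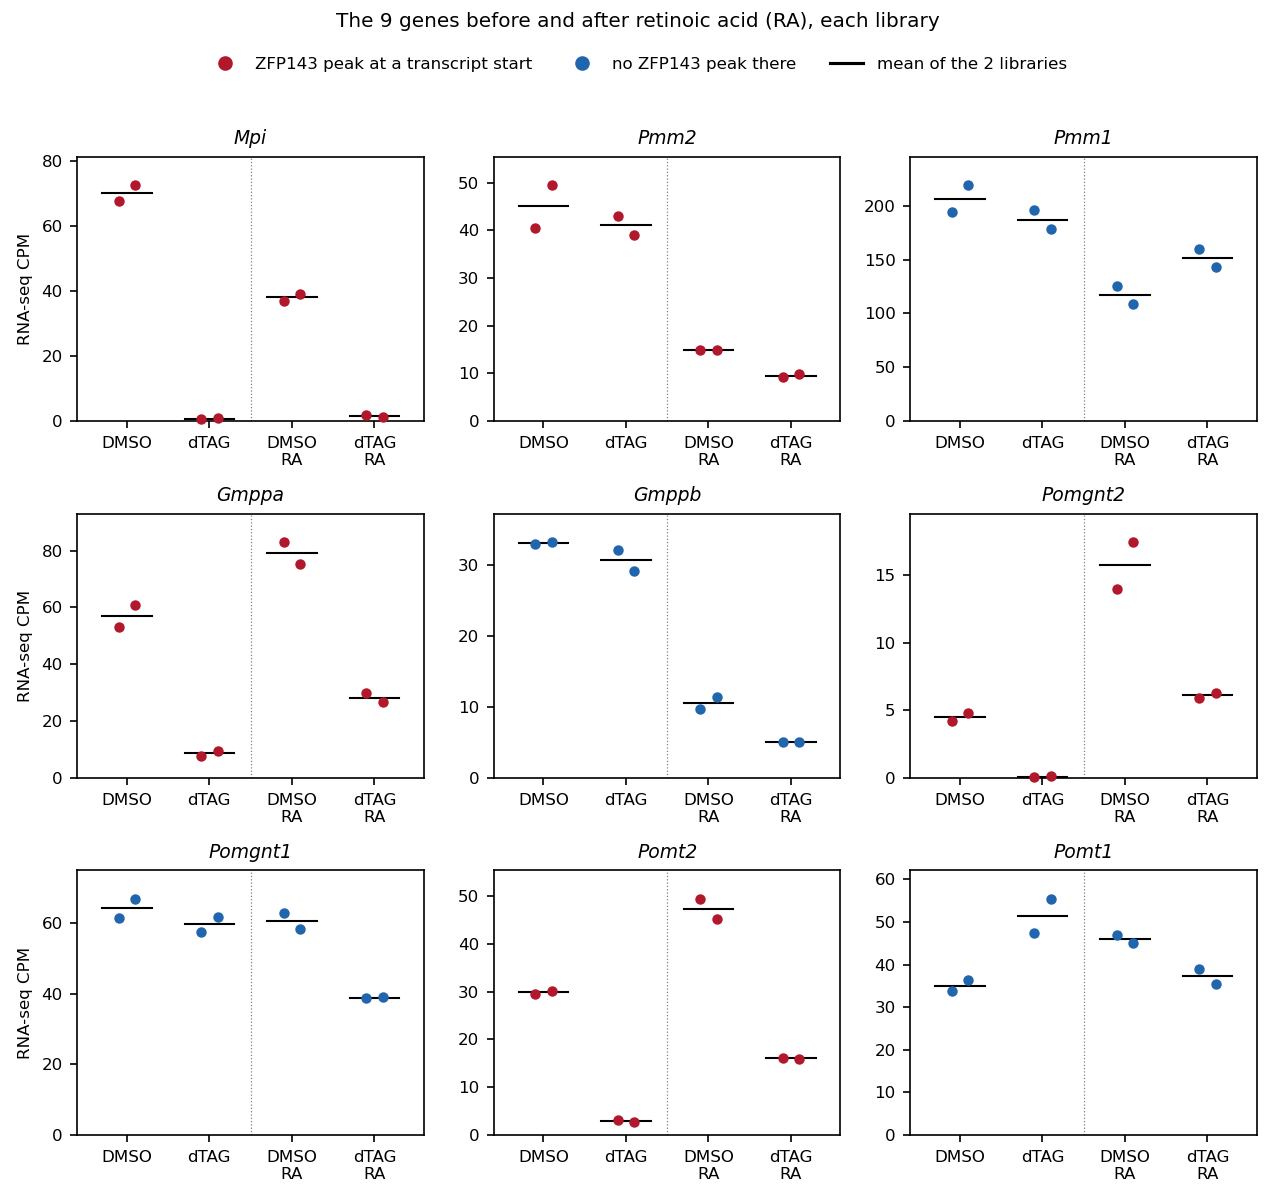
Level of each gene in CPM in the 8 libraries of the RA experiment, with DMSO and dTAG-V1 before RA and after 24 h of RA, each panel on its own axis from 0. Points are single libraries, short lines are group means, and red marks genes with a ZFP143 peak at a start. Pomgnt2 rises from 0.0519 and 0.159 to 5.93 and 6.29 CPM in depleted cells, and Mpi stays below 2 CPM in all 4 depleted libraries.

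For 5 of the 9 genes, another gene starts on the opposite strand within 1000 bp, and 3 of these 6 neighbours also had a ZFP143 peak at a start. Those 3 start at most 130 bp from a bound gene, so the same peak counts for both by definition. The rest lie beside unbound genes. Gstz1, an enzyme of tyrosine breakdown that starts 130 bp from Pomt2, fell with it. It went from 18.4 and 19.2 CPM to 8.47 and 8.67 after 24 h in RNA-seq (−1.14 ± 0.14, adjusted p = 8.8e-04, edgeR) and by −1.92 ± 0.35 after 2 h in TT-seq (adjusted p = 0.022, edgeR). The TT-seq call was lost without any 1 of the 4 libraries (adjusted p from 0.0808 to 0.222, edgeR), and the RNA-seq call without 1 of 4 libraries (0.0163, edgeR) and with DESeq2. Tmem186, a mitochondrial complex I assembly factor that starts 11 bp from Pmm2, changed by −0.64 ± 0.20 after 2 h in TT-seq, which passed only with the replicate block (adjusted p = 0.21, and 0.043 with the block, edgeR). In RNA-seq after 24 h Tmem186 changed by −0.20 and did not pass. Gm39463, an antisense transcript that starts 93 bp from Pomgnt2, had 0 counts in all RNA-seq libraries. Rad54l and Lurap1 beside Pomgnt1 have no ZFP143 peak at their starts and were not called after 2 h in TT-seq or after 24 h in RNA-seq. Gm13610 beside Pomt1 has no peak either and was not called after 2 h in TT-seq, and with 0 to 2 counts in each time-course RNA-seq library it was not tested there.

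Among protein-coding genes tested in every table, likeness to Mpi was read over the 9 depleted or RA groups. The 3 whose changes were nearest were Bckdk, the kinase of the branched-chain ketoacid dehydrogenase, Pycard, an inflammasome adaptor, and Ifrd2. The root mean square difference from Mpi was 1.51, 1.53 and 1.54 on the log2 scale, over 9 group values and 11959 genes. Pomgnt2, compared over the 6 RNA-seq values and 12358 genes, was nearest to Zfp94 (0.916), Spata31d1a (1.15) and Zfp85 (1.17). All 6 of these genes had a ZFP143 peak at a start, against 15.6% of the protein-coding genes tested in TT-seq. They were picked for being like 2 genes that fell steeply, so this count is a description. In RNA-seq after 24 h Bckdk changed by −4.36, Pycard by −4.64 and Ifrd2 by −4.57, each less than the −5.81 of Mpi.

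Around this route, 82 further genes in 5 lists were read in the same tables. They were the dolichol-linked and N-glycan mannose genes, the oligosaccharyltransferase that moves the N-glycan onto proteins, the later steps on dystroglycan, other protein mannosylation and anchor mannosyltransferases, and the supply of other sugars. At 2 h in TT-seq 2 of 81 tested genes, Tsta3 and Fuk, were called lower and 0 higher (edgeR), after 24 h in RNA-seq 4 of 80 lower and 0 higher, and in the RA experiment before RA 4 of 80 lower and 0 higher. Those shares are near the 2.43%, 3.41% and 3.66% of all tested genes. None of the 23 dolichol-linked genes and none of the 12 oligosaccharyltransferase genes was called after 24 h in RNA-seq, with medians of 0.17 and 0.14 on the log2 scale beside 0.02 over all tested genes. Of the dystroglycan list 1 of 10 tested was called lower (median 0.14), of the other mannosylation genes 0 of 12 (median 0.24), and of the sugar supply genes 3 of 23 (median −0.13).

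Tsta3, which carries out the last steps to GDP-fucose on an intermediate made from GDP-mannose, had the greatest called decrease of the sugar supply genes, −1.85 ± 0.22 after 2 h in TT-seq and −1.55 ± 0.09 after 24 h in RNA-seq (adjusted p = 3.5e-03 and 1.8e-10, edgeR). After 2 h in TT-seq the call for Tsta3 was lost without replicate 2 of the 2 h group (adjusted p = 0.0564, edgeR), and that for Fuk (−1.27) without any 1 of the 4 libraries (adjusted p from 0.0718 to 0.217, edgeR). The other 2 sugar supply genes called after 24 h, named after their values were seen, were Fuk, the fucose kinase of the salvage route (−1.32 ± 0.09), and Pfkl, a phosphofructokinase (−0.96 ± 0.05). Tsta3, Fuk and Pfkl were also called lower before RA in the RA experiment, where Pfkl was lost with scaling by library size alone and in 3 of 4 fits without 1 library (adjusted p up to 0.0716, edgeR).

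A ZFP143 peak lay at a start of 11 of the 82 genes, with Tsta3 and Fuk among them but not Pfkl. At 24 h in RNA-seq 3 of these 11 were called lower, against 18.1% of all bound protein-coding genes and 0.959% of the unbound, 10 of 11 had a change below 0, and their median was −0.60. Of the 69 tested genes without a peak 1 was called lower, 24 had a change below 0, and the median was 0.14. The medians of the 11 were −0.43 after 2 h in TT-seq and −0.66 before RA. Of the 80 genes, 9 were called lower and 6 higher after 48 h, beside 7.71% and 10.5% of all tested genes. After 72 h 7 were called lower and 11 higher, beside 12.0% and 13.7%.

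**Figure D5:**
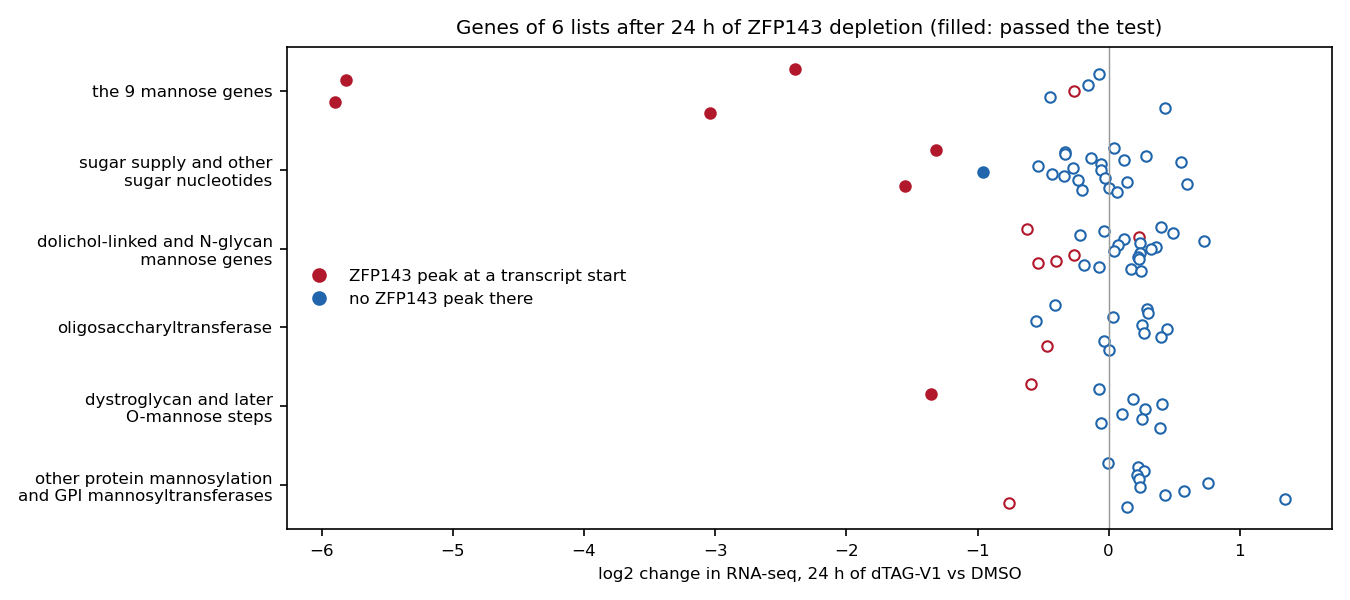
Log2 change of each gene of the 5 pathway lists and of the 9 genes after 24 h of depletion in RNA-seq, by list. Red points have a ZFP143 peak at a transcript start and blue points do not, and filled points passed the test. The 5 lists centre near 0, with medians from −0.13 to 0.24, and 4 of the 9 genes lie at −2.39 or below.

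Cell identity was read from 6 marker lists beside these results. The summed level of 7 pluripotency markers, none of them at 0, was 5380 to 5496 CPM in the RNA-seq DMSO libraries, 4370 to 4426 after 24 h, 3902 to 3987 after 48 h and 3883 to 3940 after 72 h. Before RA it was 6348 to 6523 CPM with DMSO and 5481 to 5508 with dTAG-V1, and after RA 675 to 1003 with DMSO and 1291 to 1514 with dTAG-V1. In TT-seq the sum was 3334 to 3880 CPM in all groups and none of the 7 was called. The primitive endoderm sum in TT-seq was 11.05 to 13.9 CPM with DMSO and 23.6 to 25.1 after 24 h, and the neural sum 63.3 to 67.4 and 33.4 to 50.5, with none of the tested markers of either list called (edgeR). The 5 neural markers summed to 218 to 226 CPM in RNA-seq DMSO, 130.2 to 132 after 24 h, 97.2 to 104 after 48 h and 136 to 143 after 72 h. Before RA the neural sum was 241 to 256 CPM with DMSO and 138 to 139.9 with dTAG-V1, and after RA 109 to 125 and 51.5 to 53.2. The 5 trophoblast markers summed to 36.7 to 36.9 CPM in RNA-seq DMSO, 12.8 to 14.6 after 24 h, 15.7 to 16.0 after 48 h and 21.8 to 22.3 after 72 h, with Cdx2 at 0 throughout. Before RA the trophoblast sum was 25.4 to 30.8 CPM with DMSO and 14.6 to 17.3 with dTAG-V1, and after RA 31.0 to 34.4 and 27.2 to 30.4. The 5 mesoderm markers summed to 9.55 to 10.1 CPM in RNA-seq DMSO and 17.6 to 19.0 after 72 h, to 17.7 to 17.9 with DMSO and 12.8 to 12.9 with dTAG-V1 before RA, and to 12.8 to 12.98 and 16.5 to 17.1 after RA. The 5 primitive endoderm markers summed to 6.15 to 7.41 CPM in RNA-seq DMSO, 10.5 to 11.8 after 24 h, 16.4 to 17.3 after 48 h and 16.6 to 17.1 after 72 h. Their sum was 4.72 to 5.85 CPM with DMSO and 8.62 to 11.1 with dTAG-V1 before RA, and 36.1 to 37.7 after RA with DMSO and 52.4 to 54.4 after RA with dTAG-V1. The 5 fibroblast markers summed to at most 5.52 CPM in TT-seq and RNA-seq, to 3.10 to 4.24 with DMSO and 3.90 to 4.11 with dTAG-V1 before RA, and to 6.54 to 10.3 and 25.9 to 26.2 after RA, with Dcn at 0 throughout. After RA, with dTAG-V1 against DMSO, 2 of the 3 fibroblast markers tested and 3 of the 7 pluripotency markers were called higher. So were 1 of 4 mesoderm and 1 of 3 trophoblast markers. Of 4 neural markers 2 were called lower, and of 5 primitive endoderm markers 1 lower and 1 higher (edgeR). Over all tested genes 7.36% were called lower there and 9.1% higher. At both 48 and 72 h in RNA-seq 2 of 7 pluripotency markers were called lower and 3 of 4 primitive endoderm markers higher. Of 3 neural markers 2 were lower and 1 higher, and of 2 fibroblast markers 1 was higher (edgeR). Among all tested genes 7.71% and 12.0% were lower and 10.5% and 13.7% higher. After 24 h 1 of 3 neural markers was lower and 1 higher, beside 3.41% and 2.32% of all tested genes. Before RA 1 of 4 neural and 1 of 3 trophoblast markers were lower, beside 3.66%. The part of these marker shifts in the TT-seq values after 24 h, in the RNA-seq values after 24, 48 and 72 h and in those before and after RA was not tested.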

How the data were processed

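The authors aligned TT-seq and RNA-seq reads to mm10 with STAR. For TT-seq the authors removed duplicates with Picard, split reads by strand and counted over whole genes with HTSeq, giving reads that overlap several genes to each of them. The deposited values used were raw counts per gene. In the ChIP-seq peak lists, deposited by the authors, the columns used were the fold enrichment over input and the −log10 q-value. Positions of genes came from the GENCODE annotation of mm10, and promoters from RefSeq (8 of 9 genes matched).

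Each table of 8 libraries was fitted whole with edgeR 4.0.16 in R 4.3.3 (TMM scaling, keeping genes above 10 counts in 4 or more libraries). TT-seq and the difference of RA effects used the quasi-likelihood test (adjusted p below 0.05 and absolute log2 change above 0.5). The other RNA-seq comparisons used glmTreat against a fold of 1.5 (adjusted p below 0.01). The p-values were adjusted over all tested genes. The study calls the 2 libraries of a group biological replicates. A gene was called bound if a ZFP143 peak centred within 2000 bp of a transcript start touched the stretch between 2000 bp upstream and 1000 bp downstream of it. Named were the 9 genes, Zfp143, opposite neighbours, the greatest called change per list and the genes most like Mpi and Pomgnt2. The genes, lists and tests were chosen with earlier results of these data known. On simulated counts the fits recovered at least 196 of 200 changed genes. These were all well-covered genes given large changes, so small changes and low counts were not covered. Replicate numbers paired the TT-seq libraries, since same-numbered libraries deviated together in all 6 group pairs (r from 0.190 to 0.622). They did not pair the RNA-seq libraries (r from −0.083 to 0.113). Unless the block is named, TT-seq values come from the fit without it, which ignores this pairing. Alternatives were DESeq2 1.42.0, other scaling, no count filter, the replicate block, another call rule and leaving out each library. Intervals cover counting error only. The values of 1 gene of the pathway lists are not reported here.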

Additional observations from a re-analysis of the deposited data

Results flagged for a closer look

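The effect of RA differed between depleted and control cells, by edgeR's quasi-likelihood test of the difference, for the 7 genes other than Mpi and Pomgnt2, and 31.7% of all tested genes passed the same test. On the log2 scale the difference, depleted minus control, was 3.89 for Pomgnt2, 1.96 for Mpi, 1.79 for Pomt2, 1.22 for Gmppa and 0.52 for Pmm1. It was −0.92 for Gmppb, −0.86 for Pomt1, −0.54 for Pomgnt1 and −0.51 for Pmm2 (adjusted p = 0.016, edgeR). The values of Mpi and Pomgnt2, chosen on the depletion that forms part of this difference, are a description. Leaving out 1 of the 8 libraries ended the call in 5 fits for Pmm2, in 5 for Pomgnt1 and in 4 for Pmm1. In each case the RA-treated depleted cells had also had the longer depletion, and the part of that in the difference was not tested.

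Pomgnt2 differed between 2 times of depletion in RNA-seq. Its level at 72 h was above that at 24 h in both libraries, by 4.39 ± 0.83 on the log2 scale. The 24 h libraries belong to the contrast on which Pomgnt2 was chosen and hold 1 count of it in all, so the size of the difference is a description. The call was lost with DESeq2, without replicate 1 of the 24 h group and, because Pomgnt2 then failed the count filter, without either library of the 72 h group.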

How the results depend on the processing

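The number of the 9 genes called stayed within 1.5 times the value given in most alternatives. With the other call rule it was 2 after 2 h and 2 after 6 h in TT-seq, 7 after 48 h and 3 for 72 h against 24 h in RNA-seq, and 4 for the difference of RA effects. With DESeq2 it was 2 for 24 h against 2 h in TT-seq, 0 for 72 h against 24 h and 3 for RA in control cells. For 24 h against 2 h in TT-seq, where 0 were called, 2 were called without the count filter and 2 with the replicate block. The block changed no other count of the 9 and 1 other call named here, that of Tmem186 after 2 h. Leaving out 1 library at a time gave 2 after 2 h, 2 to 3 after 6 h, 3 to 4 after 24 h and 0 for 24 h against 2 h in TT-seq. It gave 3 to 4 after 24 h, 3 to 4 after 48 h, 3 after 72 h and 0 to 1 for 72 h against 24 h in RNA-seq. It gave 4 before RA, 4 to 5 after RA, 3 to 5 for RA in control cells, 5 to 6 for RA in depleted cells and 6 to 8 for the difference. In the RNA-seq fits with 3 calls against DMSO, Pomgnt2 had failed the count filter, and its call after 72 h was also lost with DESeq2 and with scaling by library size alone. The 3 for RA in control cells came without replicate 2 of DMSO before RA. The change of Pmm2, which passed no test there, turned sign with scaling by library size alone after 72 h (0.023) and before RA (0.0016), and leaving out 1 library before RA gave −0.27 to 0.021, the latter without replicate 2 of DMSO. Of the letters searched, CCCA and ATGC with 2 bases between them lay at 0 of the 5 bound genes, and ACTACA and TCC with 2 bases between them, chosen after seeing the data, at 5, against 3 for ACTACAA.

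Over all genes, library size alone raised the median log2 change from 0.02 to 0.15 after 24 h in RNA-seq and from 0.03 to 0.35 for RA in control cells, and turned 475 lower and 323 higher after 24 h into 385 and 495. It turned 1073 and 1456 after 48 h into 698 and 2047, 1677 and 1912 after 72 h into 1109 and 2736, 583 and 436 before RA into 481 and 626, and 1171 and 1449 after RA into 762 and 2089. With DESeq2 the counts were 335 and 102 after 24 h, 729 and 780 after 48 h, 1156 and 1123 after 72 h, 474 and 143 before RA, and 767 and 791 after RA. In TT-seq 435, 506 and 730 genes were lower and 30, 71 and 361 higher after 2, 6 and 24 h, and the replicate block gave 662, 956 and 1214 lower and 87, 359 and 1009 higher. Leaving out 1 library gave 102 to 290, 109 to 309 and 340 to 467 lower. Without the count filter TT-seq gave 774, 980 and 1178 lower and 162, 338 and 1025 higher. With the other call rule it gave 70, 84 and 116 lower and 5, 4 and 12 higher. In RNA-seq that rule gave 1187, 2352 and 3066 lower and 1591, 2944 and 3398 higher at the 3 times. In the RA experiment it gave 1342 lower and 2302 higher with depletion without RA, 2966 and 3333 with it, 4508 and 5460 for RA in control cells, 4725 and 5364 in depleted cells, and 700 and 713 in place of 2863 and 2186 for the difference. The same 5 genes were bound under all 4 alternatives for peaks. Depth limits Pomgnt2, with 1 to 11 counts in each depleted TT-seq library.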
